A study of Mus musculus with 12 samples.

Results

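The genes described here encode the protein parts of the splicing machinery and the RNA-binding proteins that guide it, measured in colonic epithelial cells of mice with and without the transcription factor *Tfeb* in the intestinal epithelium. They were chosen by symbol alone: every row of the 3 deposited tables whose symbol begins with Srsf and a digit, Hnrnp, Sf3a, Sf3b, Snrp, U2af, or Lsm and a digit. The rule found 72 of the 47632 genes of each table, with 71 distinct symbols, since *U2af1l4* stands under 2 Ensembl identifiers. By role they were 8 Sm ring proteins, 6 other Snrp genes, 13 LSM genes, 3 SF3A genes, 6 SF3B genes, 4 U2AF genes, 11 SR genes and 21 hnRNP genes. GENCODE annotated 69 of the 72 as protein-coding, and the other 3 (*Snrpert*, *Snrp1c-ps2* and *Hnrnpa1l2-ps*) as processed pseudogenes, that is, copies of a spliced mRNA inserted into the genome.

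All 12 animals were C57/BL6 mice that carried *Tfeb* flox/flox, the allele with recombination sites around part of *Tfeb*. The *Tfeb* ΔIEC animals, labelled KO, also carried Cre recombinase driven by the villin promoter, which is active throughout the intestinal epithelium and not in the colon alone. The *Tfeb* flox/flox littermates, labelled WT, carried no Cre. Cells were released from the colon with EDTA on Day 0 before dextran sulfate sodium (DSS, a chemical that injures the epithelium, 2.5% by the labels), on Day 4 during it, or on Day 11 after recovery on water. Each of the 6 groups held 2 animals, aged 10 and 12 weeks on Day 0, 12 weeks on Day 4 and 10 weeks on Day 11, so age could not be told apart from day.

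Splicing removes introns from pre-mRNA in the spliceosome, which is built from small nuclear ribonucleoproteins (snRNPs). Each spliceosomal snRNP carries a ring of Sm proteins, or for U6 a ring of LSM proteins, around its RNA, with a few particle-specific proteins such as SNRPA on U1. U2AF reads the 3′ splice site, and the SF3A and SF3B complexes of U2 then hold the branch point, while SR proteins and hnRNPs bind exons and introns and shift which sites are used. The Sm and LSM proteins are very small, and SR, hnRNP and most SF3 proteins are larger.

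Levels are given as FPKM, fragments scaled to transcript length and to the mapped fragments of a library, so they can be set side by side between genes. Each genotype had 1 FPKM value per day, which Cuffdiff had made from both animals. No difference below therefore has a replicate check, no error or p-value is attached to it, and the number of reads behind it is unknown. Differences are log2(FPKM + 1) of *Tfeb* ΔIEC minus that of *Tfeb* flox/flox, which understates the difference of genes with low values. A gene was counted as higher or lower where that difference was at least 2-fold (1 on the log2 scale) and its FPKM was at least 1 in either genotype.

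On Day 0, *Tfeb* itself had 0.901 FPKM in *Tfeb* flox/flox cells and 0.185 FPKM in the *Tfeb* ΔIEC group. On Day 4 it had 1.08 FPKM in *Tfeb* flox/flox cells, on Day 11 it had 1.18 FPKM, and in *Tfeb* ΔIEC cells it was listed at 0 on both days. The 8 epithelial markers summed to between 5776 and 11302 FPKM per group, the 8 immune markers to between 1.04 and 12.0 FPKM, and the 7 stromal and endothelial markers to between 2.37 and 4.92 FPKM. *Cd68* was listed at 0 in all 6 groups, and so were *Col1a2* and *Des*. *Ptprc*, *Lyz2*, *Vim* and *Pecam1* were above 0 in all 6 groups, and *Cd52* reached 8.24 FPKM in *Tfeb* flox/flox cells on Day 11. In bulk values of this kind, fewer cells of a type and less RNA per cell cannot be told apart.

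The values of Days 4 and 11 were close to each other within a genotype. Of the 61 members above 0 on both days in *Tfeb* flox/flox cells, 52 had a Day 11 over Day 4 ratio between 0.8 and 1.25, and 4 had the identical value on both days. In *Tfeb* ΔIEC cells it was 57 of 64 members, 3 of them identical. From Day 0 to Day 4 only 12 of 60 members lay in that range in *Tfeb* flox/flox cells and 21 of 63 in *Tfeb* ΔIEC cells. Across all genes, 14.3% of those above 0 on Days 4 and 11 in *Tfeb* flox/flox cells and 10.2% in *Tfeb* ΔIEC cells had identical values. Why they were identical was not tested, and Day 11 is given beside Day 4 and not as a second observation of it.

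Fewer members were 2-fold apart between genotypes on Day 0 than on Days 4 and 11. On Day 4, 12 of 20 Snrp and LSM genes were lower in *Tfeb* ΔIEC cells and the SR, hnRNP and SF3 genes were spread to both sides. Of the 60 members past the filter on Day 0, 7 were lower in *Tfeb* ΔIEC cells by at least 2-fold, where 16.1% of all 9993 genes were, and 4 were higher, where 13.5% of all genes were. On Day 4, 22 of 58 members were lower (37.9%), where 26.1% of all 9371 genes were, and 13 were higher (22.4%), where 25.6% were. On Day 11, 20 of 58 members were lower (34.5%), where 25.7% of all 9365 genes were, and 14 were higher (24.1%), where 26.1% were. All 20 of the lower members and 13 of the 14 higher ones on Day 11 were also so on Day 4, with *Lsm10* the exception. Of the 58 members on Day 4, 44 had at least 1 FPKM in both genotypes, 10 passed the filter through *Tfeb* flox/flox alone and 4 through *Tfeb* ΔIEC alone. When each group was instead divided by the sum of its FPKM values, 12 members were lower and 15 higher on Day 4, where 16.1% and 41.6% of all genes were, and 10 lower and 18 higher on Day 11, where 15.8% and 42.1% were. That scaling moved the median of all genes on Day 4 from 0.06 to 0.68, because the FPKM values of *Tfeb* flox/flox cells summed to 1.79 times those of *Tfeb* ΔIEC cells. Relative to the median of all genes, the members had a median of -0.58 on Day 4 as deposited and -0.63 after that scaling.

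**Figure D1:**
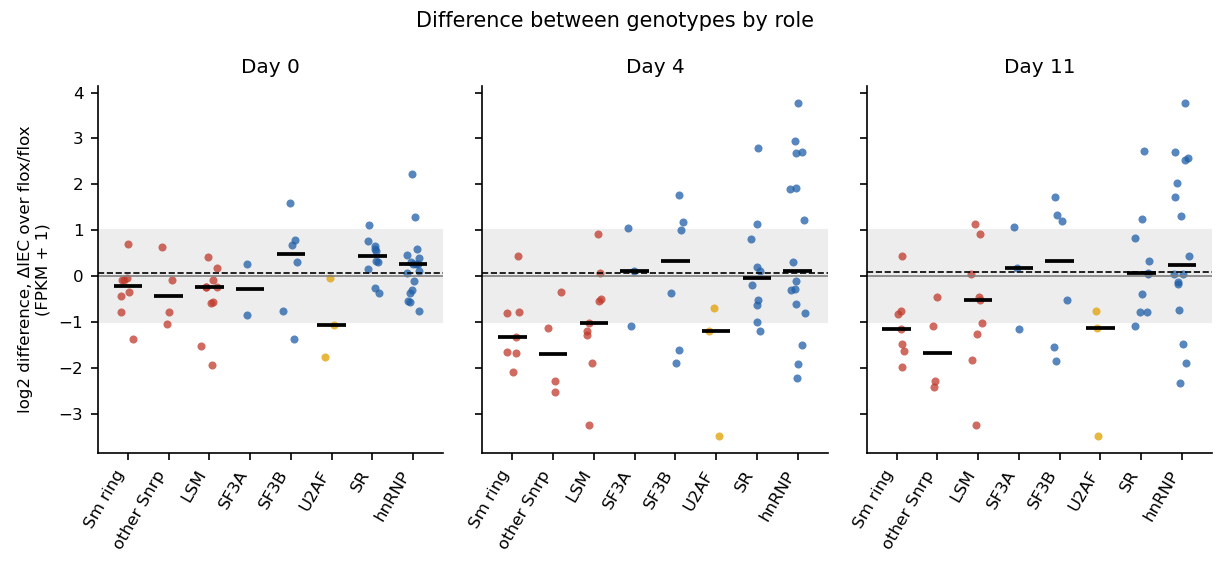
Difference between genotypes (log2 of *Tfeb* ΔIEC over *Tfeb* flox/flox, FPKM + 1) of each member past the filter, by role, on Days 0, 4 and 11; points are genes, each from 1 pooled value per genotype, solid bars are medians over the genes, the dashed line is the median of all genes and the grey band marks differences under 2-fold. On Day 4 the medians of the Sm ring, other Snrp, LSM and U2AF genes lie between -1.71 and -1.02, and those of SF3A, SF3B, SR and hnRNP genes between -0.04 and 0.32.

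The 27 Snrp and LSM genes, taken as the short class, had a median annotated transcript length of 1055 nt and a median coding length of 393 nt, and the 41 SR, hnRNP and SF3 genes, taken as the long class, 2364 nt and 1252.5 nt. The classes were not cleanly split by transcript length, since 14 of the 27 short-class genes had transcripts of 1000 nt or more. The short class also holds *Lsm14a* and *Lsm14b*, which are no snRNP proteins, and pseudogenes. On Day 0 the median difference was -0.25 over the 22 short-class genes past the filter, 18 of which were below 0, and 0.27 over the 35 long-class genes, 24 of which were above 0, with 0.06 over all genes. On Day 4 it was -1.16 over 20 short-class genes, 17 of which were below 0, and 0.10 over 35 long-class genes, 17 of which were below 0. On Day 11 it was -1.06 over 20 short-class genes, 16 of which were below 0, and 0.07 over 35 long-class genes, 14 of which were below 0. By counts on Day 4, 12 of the 20 short-class genes were lower by at least 2-fold and 0 were higher, and of the 35 long-class genes 8 were lower and 13 higher, where 26.1% of all genes were lower and 25.6% higher. The 8 lower long-class genes (22.9%) were thus near the share of all genes. Of the 12 lower short-class genes, 5 passed the filter through *Tfeb* flox/flox alone, and of the 13 higher long-class genes 4 passed it through *Tfeb* ΔIEC alone. The sign of the long-class median on Day 4 depended on the setting: over the alternatives it ran from -0.38 after subtraction of the length trend to 0.57 after division by the sum of FPKM. Division by that sum also brought the short-class median to -0.58 on Day 4 and -0.47 on Day 11, and the long-class median on Day 11 to 0.77.

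Transcript length moved with the genotype difference across all genes. Genes with transcripts under 1000 nt had a median of -0.73 on Day 0 and -1.30 on Day 4, and longer genes had a median of 0.21 and 0.38. Over the members, Spearman's rho between transcript length and the difference was 0.40 on Day 0 (60 genes), 0.49 on Day 4 (58 genes) and 0.48 on Day 11 (58 genes), as a description across genes that share the same libraries. It was 0.33, 0.38 and 0.37 over all genes with a length. Within the short class on Day 4, the 8 genes with transcripts under 1000 nt had a median of -1.50, and the 12 longer ones a median of -0.91. When the running median of all genes over transcript length was subtracted, the short class had a median of -0.08 on Day 0 and -0.73 on Day 4, and the long class 0.04 and -0.38. The gap between the classes on Day 4 was then smaller than in the values as deposited, and both classes lay below genes of like length. On Day 4 the subtraction brought *Snrpd1*, *Snrpf*, *Snrpert*, *Lsm3*, *U2af1*, *Sf3a1*, *Sf3b1*, *Sf3b2*, *Srsf7* and *Hnrnph1* under 2-fold. It also brought *Lsm14a*, *Srsf1*, *U2af2* and *Hnrnpul1* past 2-fold lower and *Lsm8* past 2-fold higher. After it, 21 members were lower and 9 higher on Day 4, against 22 and 13 as deposited. The part of transcript length in the differences of single genes was not tested.

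**Figure D2:**
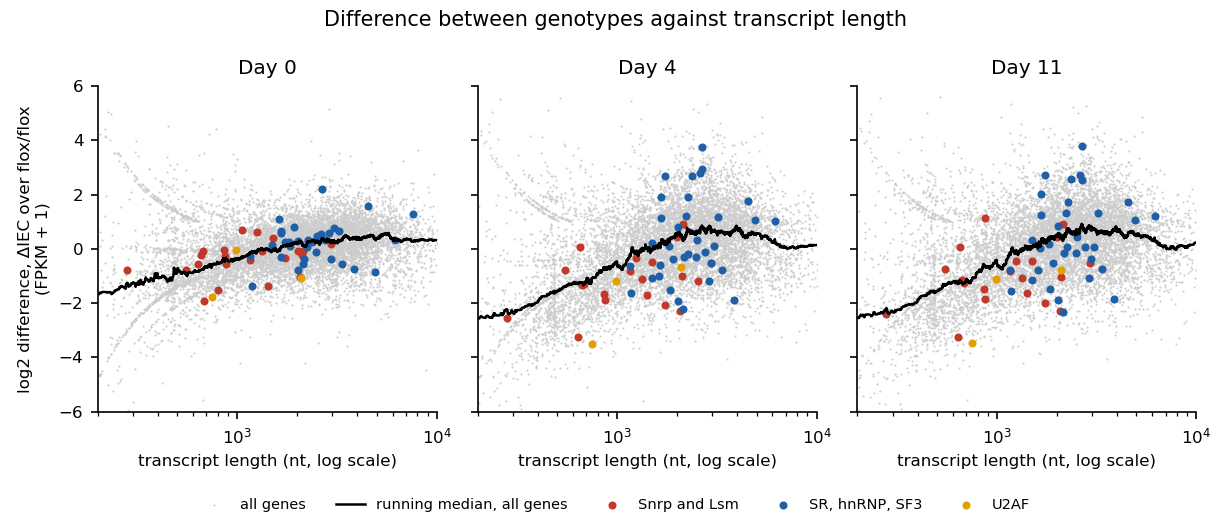
Difference between genotypes (log2 of *Tfeb* ΔIEC over *Tfeb* flox/flox, FPKM + 1) against annotated transcript length in nt (log scale) on Days 0, 4 and 11; grey points are all genes past the filter, the line is their running median over 201 genes, red points are Snrp and LSM genes, blue points SR, hnRNP and SF3 genes and yellow points U2AF genes. The line lies below 0 for the shortest genes and above 0 for genes of a few kilobases on each day, and the red points have a median 0.73 below it on Day 4.

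The Sm ring is the core shared by the U1, U2, U4 and U5 snRNPs, and 4 of its 7 members past the filter were lower in *Tfeb* ΔIEC cells on Day 4, where 26.1% of all genes were. Of those 4, *Snrpd2* and *Snrpd3* passed the filter through *Tfeb* flox/flox alone. *Snrpb*, which encodes SmB, was the most abundant, with 72.2 FPKM in *Tfeb* flox/flox and 53.5 FPKM in *Tfeb* ΔIEC cells on Day 0, 67.7 and 38.2 FPKM on Day 4, and 78.4 and 43.8 FPKM on Day 11. It was thus lower each day in the ΔIEC cells, by less than 2-fold, with -0.81 on the log2 scale on Day 4. *Snrpd3*, which encodes SmD3, had 1.75 and 1.16 FPKM on Day 0, 4.65 and 0.335 FPKM on Day 4, and 4.24 and 0.328 FPKM on Day 11 in *Tfeb* flox/flox and *Tfeb* ΔIEC cells. The Day 4 difference of *Snrpd3* was -2.08, the lowest of the ring. *Snrpf* (SmF) had 3.25 and 3.12 FPKM on Day 0, 7.56 and 1.72 FPKM on Day 4, and 6.66 and 1.74 FPKM on Day 11. For *Snrpd3* and *Snrpf* alike, the genotypes were near each other before DSS and apart after it, with *Tfeb* flox/flox cells above their Day 0 level and *Tfeb* ΔIEC cells below theirs. *Snrpf* shares 65.9% of its exon bases with *Ccdc38* on the opposite strand, which was listed at 0 in all 6 groups. *Snrpd1* (SmD1) was also lower on Day 4, at 7.86 against 2.50 FPKM, with -1.34 on the log2 scale, where genes of its transcript length had a running median of -1.25. Less that median, *Snrpd1* and *Snrpf* were both under 2-fold, at -0.086 and -0.89. *Snrpd2* (SmD2) was already lower on Day 0, at 2.38 against 0.311 FPKM, and stood at 3.14 against 0.288 FPKM on Day 4 and 3.01 against 0.288 FPKM on Day 11. *Snrpn*, the imprinted paralog of *Snrpb*, lay on the other side, at 1.09 FPKM in *Tfeb* flox/flox and 1.85 FPKM in *Tfeb* ΔIEC cells on Day 4, with 0.44 on the log2 scale. *Snrpn* shares 10.0% of its exon bases with *Snurf*, which was above 0 in *Tfeb* ΔIEC cells on Days 4 and 11 alone. *Snrpg* (SmG) was under 1 FPKM in both genotypes on Days 4 and 11 and was not compared there.

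*Snrpe*, which encodes SmE, and *Snrpert*, its intronless copy on chromosome 2 (mm10, 131322088 to 131322366, minus strand), cannot be read apart with full weight. The 279 bases of *Snrpert* equalled the *Snrpe* mRNA at 276 positions, and 55.7% of the 50-base sequences of *Snrpert* also occurred in *Snrpe*. A stretch of 60 bases, positions 169 to 228 of *Snrpert*, is shown with the differing bases in capitals, because it shows how little separates reads of the 2 genes:
Snrpert: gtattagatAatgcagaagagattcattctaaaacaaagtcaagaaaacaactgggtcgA
Snrpe: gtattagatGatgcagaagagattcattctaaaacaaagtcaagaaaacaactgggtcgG
*Snrpe* had 70.3 and 40.6 FPKM on Day 0, 38.1 and 21.8 FPKM on Day 4, and 36.8 and 21.4 FPKM on Day 11 in *Tfeb* flox/flox and *Tfeb* ΔIEC cells. *Snrpert* had 110 and 63.2 FPKM on Day 0, 126 and 21.0 FPKM on Day 4, and 128 and 23.1 FPKM on Day 11. Both were lower in *Tfeb* ΔIEC cells on each day, with differences on Day 4 of -0.78 for *Snrpe* and -2.53 for *Snrpert*. The running median of genes of their transcript lengths was -1.40 and -2.23 on that day, so *Snrpe* lay above genes of like length and *Snrpert* near them. How the deposited values divided shared reads between these genes was not tested.

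Of the particle-specific Snrp genes, 2 of the 3 past the filter were lower on Day 4, where 26.1% of all genes were, and *Snrpb2* passed it that day through *Tfeb* flox/flox alone. *Snrpb2*, which encodes the U2B″ protein of the U2 snRNP, had 3.43 and 1.16 FPKM on Day 0, and on Days 4 and 11 it had 3.89 FPKM in *Tfeb* flox/flox cells and was listed at 0 in *Tfeb* ΔIEC cells. *Snrpa*, an RNA-binding protein of the U1 snRNP, had 3.98 and 3.71 FPKM on Day 0 and 5.41 and 1.94 FPKM on Day 4. *Snrpa1*, the partner of U2B″, differed by less than 2-fold on every day, with 8.99 and 14.4 FPKM on Day 0 and 9.42 and 7.19 FPKM on Day 4. *Snrpc*, another U1 protein, stayed under 1 FPKM in all 6 groups, and *Snrp1c-ps2* was listed at 0 in all of them.

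Among the LSM genes, which supply the ring of U6 and the cytoplasmic ring that acts in mRNA decay, 5 of 9 past the filter were lower in *Tfeb* ΔIEC cells on Day 4, where 26.1% of all genes were, and 0 were higher, where 25.6% were. Of those 5, *Lsm6* and *Lsm14b* passed the filter through *Tfeb* flox/flox alone. *Lsm4*, a subunit of both rings, had 16.6 and 10.9 FPKM on Day 0, 121 and 11.9 FPKM on Day 4, and 137 and 13.5 FPKM on Day 11 in *Tfeb* flox/flox and *Tfeb* ΔIEC cells. It was 10.2 times as high in *Tfeb* flox/flox as in *Tfeb* ΔIEC cells on Day 4, and between Day 0 and Day 4 it stood 7.28 times higher in *Tfeb* flox/flox cells and 1.09 times higher in *Tfeb* ΔIEC cells. *Lsm2* had 10.2 and 8.39 FPKM on Day 0, 21.7 and 5.11 FPKM on Day 4, and 20.8 and 5.12 FPKM on Day 11. *Lsm3* was already apart on Day 0, at 12.2 against 2.43 FPKM, and less so on Day 4, at 14.8 against 5.48 FPKM. *Lsm3* was lower by 1.28 on the log2 scale on Day 4, where genes of its transcript length had a running median of -1.33. *Lsm6* had 1.95 against 0.460 FPKM on Day 4. *Lsm14b*, a regulator of mRNA translation and not a ring subunit, passed the 2-fold threshold on Day 4 through 1.29 FPKM in *Tfeb* flox/flox cells and a listing at 0 in *Tfeb* ΔIEC cells. *Lsm8*, the subunit that makes the ring nuclear, differed little, at 9.58 against 10.0 FPKM on Day 4. Genes of its transcript length had a running median of -1.23 that day. *Lsm1*, the cytoplasmic counterpart of *Lsm8*, had 2.84 against 1.73 FPKM on Day 4. *Lsm14a*, a paralog of *Lsm14b*, had 2.47 against 1.39 FPKM, with -0.54 on the log2 scale. *Lsm11*, like *Lsm10* a U7 protein, stayed under 1 FPKM in all 6 groups. *Lsm12* lay on the other side, at 4.38 against 9.15 FPKM, with 0.92 on the log2 scale. *Lsm10*, a subunit of the U7 snRNP that processes histone mRNA, was listed at 0 in *Tfeb* flox/flox cells on Days 4 and 11 and had 0.947 and 1.19 FPKM in *Tfeb* ΔIEC cells. *Lsm5* was listed at 0 in all 6 groups, and *Lsm7* in all but *Tfeb* flox/flox cells on Day 0, at 1.87 FPKM; every splicing cell uses both genes, so a listing at 0 in these tables does not show that an mRNA was missing.

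**Figure D3:**
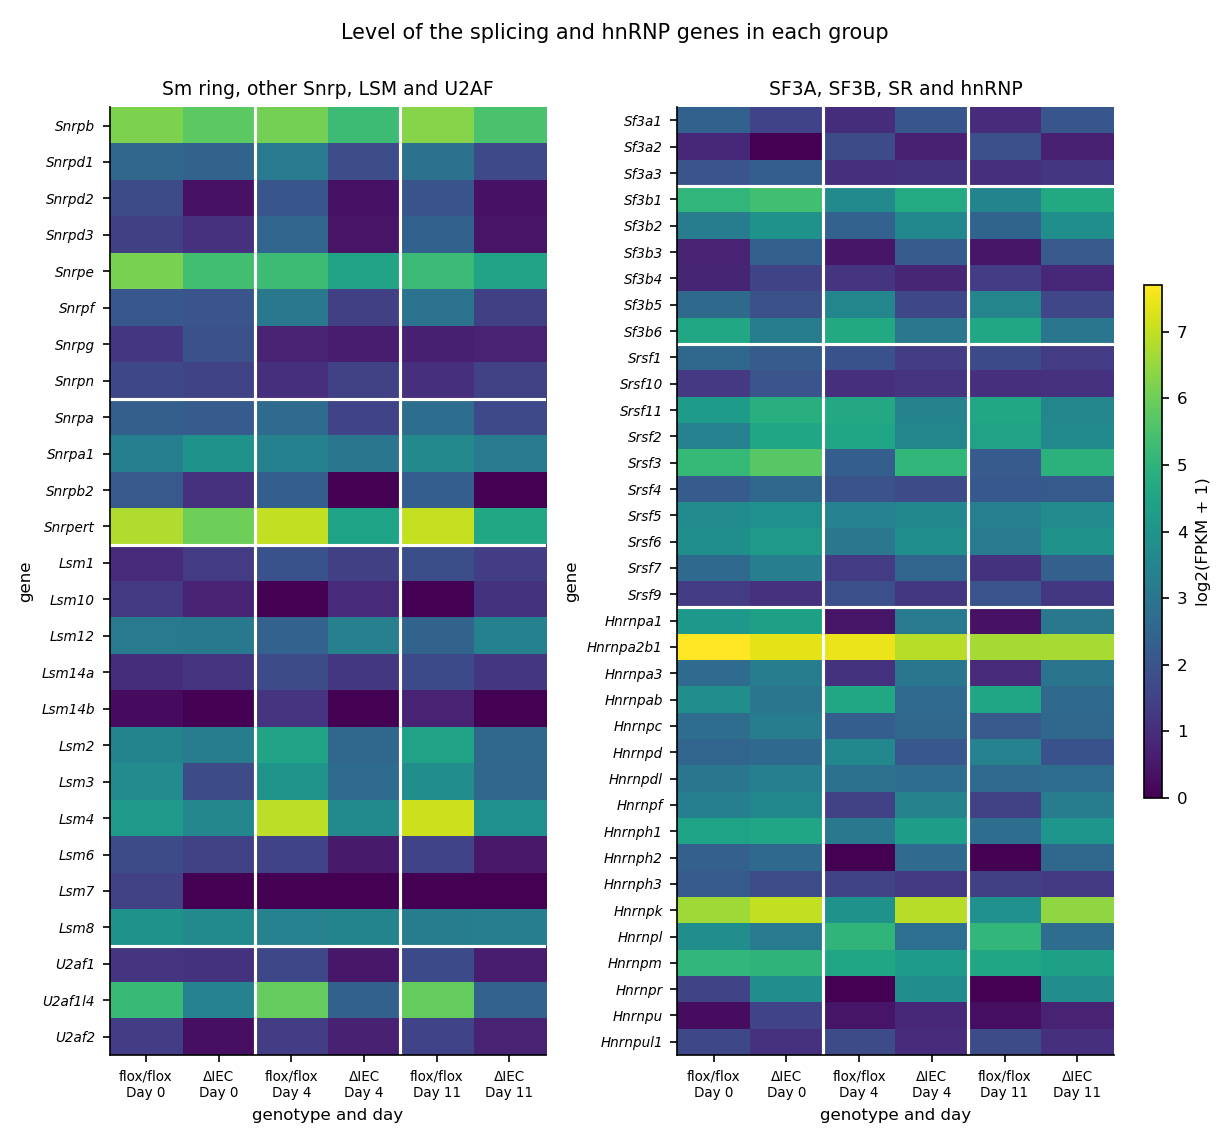
Level of each member with at least 1 FPKM in any group, as log2(FPKM + 1), in the 6 groups; rows are genes ordered by role with white lines between roles, columns are genotype and day, and each cell is 1 pooled value. *Hnrnpa2b1*, *Snrpert*, *Lsm4* and *Hnrnpk* reach the brightest cells, and columns of Days 4 and 11 resemble each other within a genotype.

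Of the U2AF genes, *U2af1l4* alone had at least 1 FPKM in both genotypes on Day 4. *U2af1* and *U2af2* passed the filter that day through *Tfeb* flox/flox alone, *U2af2* on Day 0 as well, so their direction there was set by the filter. *U2af1l4*, a short paralog of the small U2AF subunit, had 35.6 and 9.73 FPKM on Day 0, 57.7 and 4.19 FPKM on Day 4, and 58.4 and 4.33 FPKM on Day 11 in *Tfeb* flox/flox and *Tfeb* ΔIEC cells. It was 3.66 times as high in *Tfeb* flox/flox as in *Tfeb* ΔIEC cells on Day 0 and 13.7 times as high on Day 4, so it was far apart before DSS as well. The second *U2af1l4* identifier is a longer gene model that shares 94.3% of the exon bases of this row. It had 0.343 FPKM in *Tfeb* ΔIEC cells on Day 0 and was listed at 0 in the other 5 groups. *U2af1*, the small subunit itself, had 1.25 and 1.19 FPKM on Day 0 and 2.21 and 0.400 FPKM on Day 4. *U2af2*, the large subunit, had 1.62 and 0.249 FPKM on Day 0 and 1.64 and 0.639 FPKM on Day 4.

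The SF3 complexes were divided by subunit. In SF3B, which contacts the branch point, 3 of 6 genes were higher in *Tfeb* ΔIEC cells on Day 4, where 25.6% of all genes were, and 2 were lower, where 26.1% were. Of the 3 higher genes, 1 passed the filter through *Tfeb* ΔIEC alone, and the other 2 were under 2-fold once the running median over transcript length was subtracted, with 0.75 for *Sf3b1* and 0.53 for *Sf3b2*. *Sf3b1* was also under 2-fold once the median of all genes was set to 0, at 0.96. *Sf3b1*, the large scaffold subunit, had 32.4 and 40.5 FPKM on Day 0, 11.9 and 25.1 FPKM on Day 4, and 10.2 and 24.8 FPKM on Day 11 in *Tfeb* flox/flox and *Tfeb* ΔIEC cells. *Sf3b2* had 8.53 and 14.1 FPKM on Day 0 and 4.37 and 11.1 FPKM on Day 4. *Sf3b3* had 0.703 and 4.11 FPKM on Day 0, 0.390 and 3.71 FPKM on Day 4, and 0.358 and 3.49 FPKM on Day 11, and was thus higher by at least 2-fold on all 3 days. The 2 lower genes, *Sf3b5* and *Sf3b6*, encode the smallest subunits among the 6 Sf3b genes. *Sf3b6*, the p14 protein that touches the branch-point adenosine, had 23.2 and 8.40 FPKM on Day 0, 24.4 and 7.32 FPKM on Day 4, and 23.0 and 7.21 FPKM on Day 11. *Sf3b5* had 5.33 and 2.76 FPKM on Day 0 and 10.7 and 2.16 FPKM on Day 4. Their coding lengths were 375 and 258 nt, against 2634 to 3912 nt for *Sf3b1*, *Sf3b2* and *Sf3b3*, although the annotated transcript of *Sf3b5* had 3841 nt, where the running median of all genes was 0.68 on Day 4. *Sf3b4* lay within 2-fold on Day 4, at 1.27 against 0.763 FPKM. In SF3A, *Sf3a1* was on opposite sides on Day 0, at 4.23 against 1.92 FPKM, and on Day 4, at 1.01 against 3.19 FPKM. *Sf3a2* had 2.49 against 0.637 FPKM on Day 4, and *Sf3a3* differed little, at 1.06 against 1.21 FPKM. *Sf3a2* shares 19.2% of its exon bases with *Plekhj1* on the opposite strand, which had 8.80 against 2.11 FPKM on Day 4.

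Of the 10 SR genes past the filter on Day 4, 2 were higher in *Tfeb* ΔIEC cells, where 25.6% of all genes were, and 2 lower, where 26.1% were. *Srsf3*, the smallest SR protein, had 34.5 and 51.1 FPKM on Day 0, 3.94 and 33.4 FPKM on Day 4, and 3.64 and 29.9 FPKM on Day 11 in *Tfeb* flox/flox and *Tfeb* ΔIEC cells. It was 8.47 times as high in *Tfeb* ΔIEC cells on Day 4, and its level in *Tfeb* flox/flox cells was 8.75 times as high on Day 0 as on Day 4. *Srsf2* crossed over, with 9.64 and 22.0 FPKM on Day 0, 22.3 and 10.6 FPKM on Day 4, and 20.6 and 11.5 FPKM on Day 11. The other 2 SR genes past 2-fold on Day 4, named after their values were seen, were *Srsf7*, higher at 1.60 against 4.73 FPKM, and *Srsf11*, lower at 24.1 against 9.97 FPKM. The remaining 6 lay between -0.63 and 0.81 on the log2 scale, and *Srsf12* was listed at 0 in all 6 groups.

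The hnRNP genes had the widest spread of any role on Day 4, from -2.22 to 3.77, with 7 of 16 higher by at least 2-fold, where 25.6% of all genes were, and 3 lower, where 26.1% were. Of the 7 higher genes, 3 passed the filter through *Tfeb* ΔIEC alone. *Hnrnpa2b1*, the most abundant member, had 207 and 168 FPKM on Day 0, 178 and 117 FPKM on Day 4, and 101 and 104 FPKM on Day 11, and never reached 2-fold between genotypes. *Hnrnpk* had 95.5 and 126 FPKM on Day 0, 14.2 and 116 FPKM on Day 4, and 13.8 and 84.9 FPKM on Day 11 in *Tfeb* flox/flox and *Tfeb* ΔIEC cells. The level of *Hnrnpk* in *Tfeb* flox/flox cells was thus 6.71 times as high on Day 0 as on Day 4, and 1.09 times in *Tfeb* ΔIEC cells. *Hnrnpa1*, a repressor of splice sites and the paralog of *Hnrnpa2b1*, had 16.2 and 19.6 FPKM on Day 0, 0.367 and 7.89 FPKM on Day 4, and 0.288 and 7.44 FPKM on Day 11. Of the 50-base sequences of *Hnrnpa1*, 71.8% occurred in no other gene, and *Gm10052* held most of the rest. *Hnrnpr* had 1.96 and 12.7 FPKM on Day 0 and was listed at 0 in *Tfeb* flox/flox cells on Days 4 and 11, with 12.6 and 12.7 FPKM in *Tfeb* ΔIEC cells. *Hnrnph2* was likewise listed at 0 in *Tfeb* flox/flox cells on Days 4 and 11, with 5.42 and 4.95 FPKM in *Tfeb* ΔIEC cells, while on Day 0 it had 4.19 and 5.25 FPKM.

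The 3 lower hnRNP genes on Day 4 were *Hnrnpl*, *Hnrnpab* and *Hnrnpd*. *Hnrnpl*, which binds CA-rich RNA, had 12.6 and 8.18 FPKM on Day 0, 31.8 and 6.06 FPKM on Day 4, and 33.4 and 5.79 FPKM on Day 11 in *Tfeb* flox/flox and *Tfeb* ΔIEC cells. *Hnrnpab* had 13.0 and 7.21 FPKM on Day 0 and 23.2 and 5.40 FPKM on Day 4. *Hnrnpd*, also called AUF1, a binder of AU-rich elements, had 4.70 and 5.15 FPKM on Day 0 and 11.1 and 3.27 FPKM on Day 4. Their annotated transcripts had 2142, 2013 and 1835 nt, where the running median of all genes lay between 0.30 and 0.54 on Day 4. They therefore stood on the opposite side from genes of like length. *Hnrnpu*, a nuclear scaffold protein, had 0.183 and 1.91 FPKM on Day 0 and was under the filter on Days 4 and 11, and *Hnrnpul1* lay below 0 on all 3 days without reaching 2-fold.

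**Figure D4:**
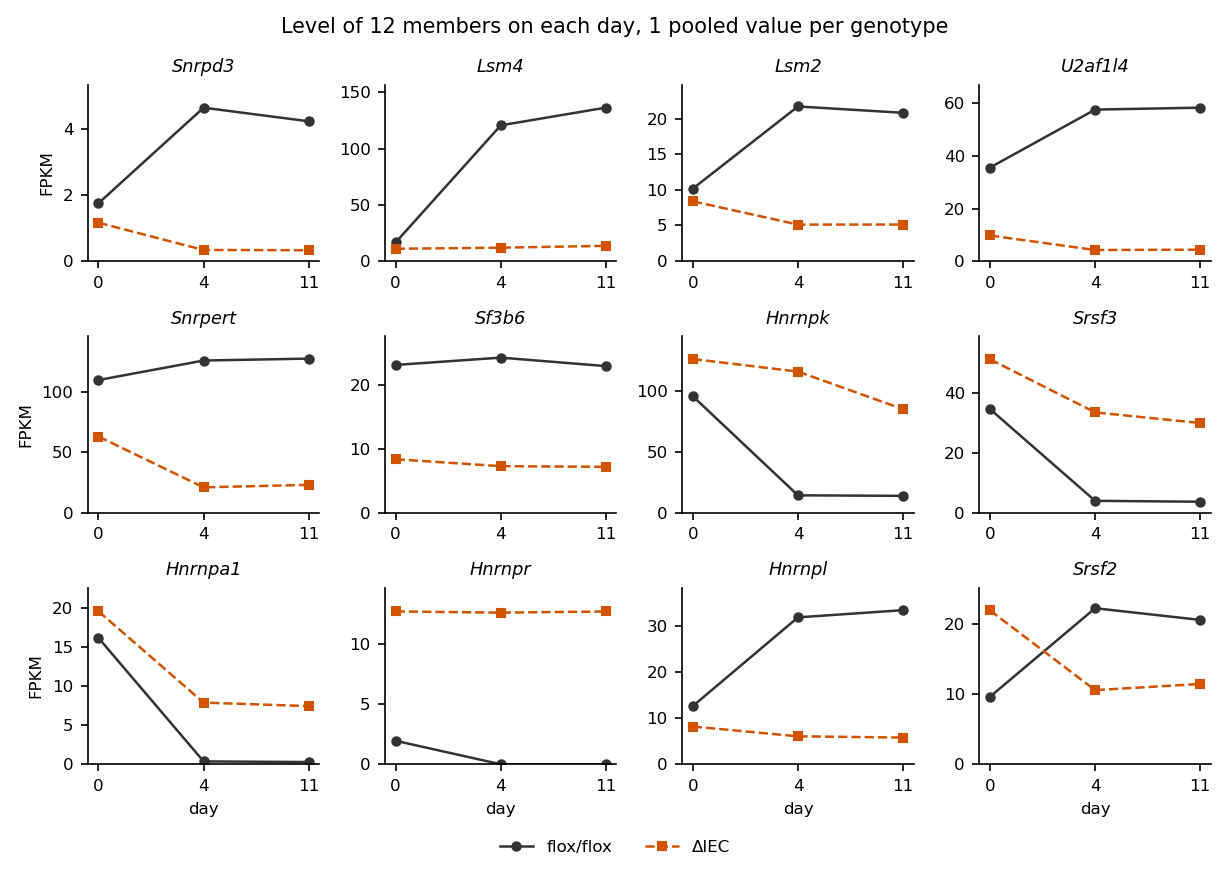
FPKM of 12 members on Days 0, 4 and 11 (each panel has its own axis from 0); circles and solid lines are *Tfeb* flox/flox, squares and dashed lines *Tfeb* ΔIEC, each point is 1 value pooled over 2 animals, and the lines join separately scaled tables. *Lsm4* and *Hnrnpl* are high after Day 0 in *Tfeb* flox/flox cells only, *Hnrnpk*, *Srsf3* and *Hnrnpa1* are low there, and *Srsf2* crosses over.

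Levels were also set side by side between Day 0 and Day 4 within each genotype. Days were scaled in separate tables, so these differences carry any difference in scaling. Over all members past the filter, 13 of 60 were lower and 7 of 60 higher by at least 2-fold on Day 4 than on Day 0 in *Tfeb* flox/flox cells, where 25.7% and 17.5% of all genes were. In *Tfeb* ΔIEC cells 7 of 56 were lower and 0 of 56 higher, where 15.6% and 9.26% of all genes were. The median over members was -0.17 in *Tfeb* flox/flox cells, with -0.20 over all genes, and -0.55 in *Tfeb* ΔIEC cells, with -0.20 over all genes.

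**Figure D5:**
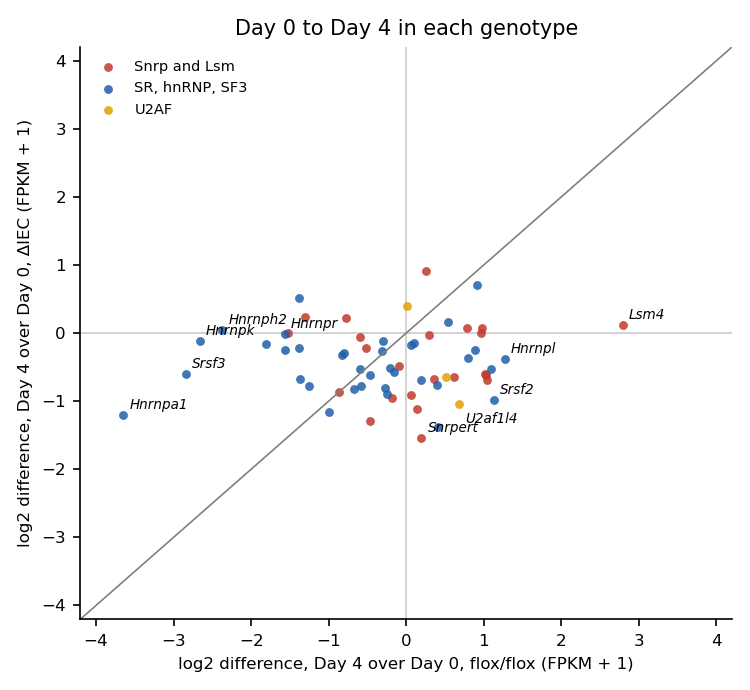
Log2 difference of Day 4 over Day 0 (FPKM + 1) in *Tfeb* flox/flox (horizontal) and *Tfeb* ΔIEC cells (vertical) for each member with at least 1 FPKM in any of these 4 groups; the grey diagonal marks equal shifts, and red, blue and yellow points are Snrp and LSM, SR, hnRNP and SF3, and U2AF genes. The points spread further along the horizontal axis than the vertical, from *Hnrnpa1* on the left to *Lsm4* on the right.

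Other genes of splicing were counted from lists of spliceosome proteins, snRNP assembly factors and splicing regulators. Of 67 other spliceosome genes past the filter on Day 4, 17 were lower in *Tfeb* ΔIEC cells (25.4%) and 7 higher (10.4%), with a median of -0.26, where 26.1% and 25.6% of all genes were. The share of lower genes in this list was thus that of all genes. The helicase *Ddx23* (10.7 against 0.378 FPKM) and the large SR-related protein *Srrm2* (56.3 against 7.46 FPKM) were among the lower. *Prpf6* (0.726 against 8.58 FPKM) and the helicase *Dhx15* (0.785 against 7.74 FPKM) were among the higher. *Ddx23* passed the filter through *Tfeb* flox/flox alone, as did some other lower genes of this list. *Prpf6* and *Dhx15* passed it through *Tfeb* ΔIEC alone, as did most higher genes of this list. Of 10 snRNP assembly genes, 3 were lower and 1 higher. Of the 3 lower genes, *Gemin6* and *Smn1* passed the filter through *Tfeb* flox/flox alone. *Gemin7*, a member of the SMN complex that loads Sm rings, had 22.3 against 4.02 FPKM, and *Strap*, a partner of the same complex, 3.54 against 16.2 FPKM. Of 31 splicing regulators, 5 were lower (16.1%) and 10 higher (32.3%), with *Rbm39* at 111 against 13.6 FPKM and *Elavl1* at 3.09 against 14.1 FPKM. Some regulators passed the filter through 1 genotype alone, such as *Clk2* among the lower and *Clk4* among the higher.

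TFEB binds E-boxes with the core CACGTG, so that hexamer was looked for in the promoters of the members. RefSeq promoters, 250 bases before to 50 after each annotated start (GRCm38.p6), of which a gene can have several, were matched by symbol for 58 of the 71 symbols. The hexamer, which reads the same on both strands, was in a promoter of 6 of the 58 (10.3%), and in one of 8.09% of all 27025 symbols with a promoter and 12.1% of the 6937 with at least 1 FPKM in any group. The longer TCACGTGA, which contains it, was in 3 of the 58 (5.17%), against 1.12% of all symbols with a promoter. Among the 53 members with at least 1 FPKM in any group, 6 had the hexamer (11.3%) and 3 the longer form (5.66%). Of the 6937 symbols so filtered, 12.1% and 2.25% did. A share that rests on 3 genes is a small count. The members with the hexamer are shown with 10 bases on either side, 5′ to 3′ on the gene's strand and with the hexamer in capitals, since TFEB is the factor removed; for *Snrpa*, the 1 of its 3 matches that lies in TCACGTGA is shown:
Hnrnpa3 (chr2:75659231-75659256, plus): gatagcacatCACGTGgtgactggcc
Hnrnpd (chr5:99978955-99978980, minus): gctccggagcCACGTGaccgggacgc
Hnrnpf (chr6:117907715-117907740, plus): agcgggcgctCACGTGgcccgaggcg
Hnrnph2 (chrX:134601184-134601209, plus): gagagttgctCACGTGaccgagatct
Hnrnpm (chr17:33685430-33685455, minus): cgttcggggtCACGTGagcgcgcagg
Snrpa (chr7:27196288-27196313, minus): tcttgaaggtCACGTGatactggcgg
The hexamer began 18 bases before the RefSeq start in *Hnrnpa3*, 32 in *Hnrnpd*, 79 in *Hnrnpf* and 32 in *Snrpa*, and 15 bases past it in *Hnrnph2* and 13 in *Hnrnpm*. The starts used for *Hnrnpf* and *Hnrnpm* are internal ones, 7480 and 1402 bases inside the GENCODE gene. These 6 genes were named for the motif and not for their levels. On Day 4 their differences ran both ways: 1.90 for *Hnrnpa3*, 1.91 for *Hnrnpf*, 2.68 for *Hnrnph2*, -0.30 for *Hnrnpm*, -1.12 for *Snrpa* and -1.51 for *Hnrnpd*. On Day 0 they lay between -0.11 and 0.59. A match is a description of the letters in this window and not a bound site.

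Some epithelial markers also differed between the genotypes on Day 4. Of the 8 epithelial markers, 3 (*Krt20*, *Vil1* and *Cdh1*) were higher in *Tfeb* ΔIEC cells by at least 2-fold, where 25.6% of all genes were. Of the same 8, 0 were lower, where 26.1% of all genes were, and *Krt19* and *Krt8* had differences of -0.0062 and -0.33. *Krt20*, a keratin of surface colonocytes, had 168 and 101 FPKM on Day 0 and 101 and 931 FPKM on Day 4 in *Tfeb* flox/flox and *Tfeb* ΔIEC cells, and *Vil1* had 30.6 and 224 FPKM on Day 4. The 12 proliferation markers summed to 68.7 and 89.2 FPKM on Day 0, 29.7 and 34.0 FPKM on Day 4 and 30.5 and 34.4 FPKM on Day 11. The 8 immune markers summed to 11.2 and 6.26 FPKM on Day 4. Their part in the differences of the splicing genes was not tested.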

How the data were processed

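Full-length cDNA of isolated colonic epithelial cells was made by a variant of SmartSeq2 and sequenced as paired ends on a MiSeq. The authors mapped reads to mm10 with Tophat2 (2.0.14 by the submitters' processing notes) and Bowtie and compared genotypes with Cuffdiff (2.1.1). The 3 deposited tables hold FPKM, 1 value per genotype and day, pooled over 2 animals and scaled within a table. Their other columns (the fold change, test statistic, p-value, q-value and call of the authors) were not used. Depth is unknown, so no interval for counting error is given.

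The tables were joined by Ensembl identifier. Differences were computed with a pseudocount of 1 FPKM among genes with at least 1 FPKM in either genotype, with Python 3.11.15, and the steps were tested on simulated data with changes well above the 2-fold threshold only. Transcript and coding lengths, coordinates and exon overlaps came from GENCODE M21 (GRCm38, the assembly of mm10), with a transcript length for 47218 of 47632 genes. SmartSeq2 does not mark strand, so overlapping genes on opposite strands share reads. The length trend is the median of the 201 genes nearest in length. Shared 50-base sequences were counted over the GENCODE transcripts. The genes, lists and classes were chosen with earlier results of these data known. Named were all Snrp, LSM, SF3 and U2AF genes. Of the SR and hnRNP genes, the 3 highest and the 3 with the largest difference each way on each day were named. So were those listed at 0 in 1 genotype with 5 FPKM or more in the other. Other SR and hnRNP genes were named for a promoter match, a pseudogene annotation or a listing at 0 in all groups. Further ones were named after their values were seen, being past 2-fold on Day 4 with or without the length trend. Of the other splicing lists, names come from the 3 largest differences each way on Day 4. Alternatives were another pseudocount, filter, scaling, threshold and class definition.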

Additional observations from a re-analysis of the deposited data

Results flagged for a closer look

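The genotypes were apart by at least 2-fold in opposite directions on Day 0 and on a later day in 1 of 57 members (*Srsf2*) and in 8 of 104 genes of the other splicing lists, where 3.29% of all genes were. Of those 8, *Wbp11*, *Ctnnbl1* and *Smn1* are given here, since their Day 4 differences were among the largest of their lists. The difference between days was not tested, since each genotype had 1 pooled value per day. *Srsf2* was higher in *Tfeb* ΔIEC cells by 1.11 on the log2 scale on Day 0 and differed by -1.01 on Day 4 and by -0.79 on Day 11, which is under 2-fold. On Day 4 it differed by -0.22 once each group was divided by the sum of its FPKM. *Wbp11*, a spliceosome protein, had a difference of 2.66 on Day 0, -2.73 on Day 4 and -2.72 on Day 11. Its FPKM in *Tfeb* flox/flox and *Tfeb* ΔIEC cells was 0.322 and 7.37 on Day 0 and 10.9 and 0.791 on Day 4. On each day *Wbp11* passed the filter through 1 genotype alone. *Ctnnbl1*, also of the spliceosome, had -1.08 on Day 0, 2.40 on Day 4 and 1.99 on Day 11. At 0.463 against 6.72 FPKM on Day 4, *Ctnnbl1* passed the filter through *Tfeb* ΔIEC alone, and so it did on Day 11. *Smn1*, which loads the Sm ring onto snRNA, had 4.23 on Day 0, -4.36 on Day 4 and -4.31 on Day 11. *Smn1* was listed at 0 in *Tfeb* flox/flox cells on Day 0 and in *Tfeb* ΔIEC cells on Days 4 and 11, and had between 17.8 and 19.5 FPKM in the other 3 groups. Its differences rest on those listings at 0.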

How the results depend on the processing

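No paired analysis was possible because each genotype had 1 value per day, pooled over both animals, and for the same reason no animal could be left out. Over 9 alternatives, the short-class median ran from -0.57 to -0.078 on Day 0, from -1.52 to -0.58 on Day 4 and from -1.38 to -0.47 on Day 11. The long-class median ran from 0.035 (length trend subtracted) to 0.32 on Day 0, from -0.38 to 0.57 on Day 4 and from -0.28 to 0.77 on Day 11, so its sign on Days 4 and 11 depended on the setting. With at least 10 FPKM in either genotype, 3 members were lower and 2 higher on Day 0, 12 lower and 6 higher on Day 4, and 10 lower and 6 higher on Day 11. With a threshold of 4-fold the counts were 0 and 1 on Day 0, 6 and 5 on Day 4, and 5 and 6 on Day 11. A pseudocount of 0.1 FPKM gave 7 higher on Day 0. Dividing by the sum of FPKM gave 12 lower on Day 4 and 10 on Day 11. The share of lower among members past 2-fold then went from 62.9% to 44.4% on Day 4 and from 58.8% to 35.7% on Day 11. With the other pseudocount, filters and adjustments that share ran from 62.9% to 70% on Day 4 and from 58.8% to 65.5% on Day 11. Subtraction of the length trend gave 8 lower and 4 higher on Day 0, 21 and 9 on Day 4, and 19 and 10 on Day 11. Of 80 differences past 2-fold of single members, 20 were under 2-fold after division by the sum of FPKM. Another 2 counts of this kind were found once the median of all genes was set to 0, and 18 after subtraction of the length trend. That subtraction also turned 3 of them: *Lsm3* to 0.046 on Day 4 and 0.032 on Day 11, and *Snrpd1* to 0.12 on Day 11. Of the 2 alternatives added after the data were seen, classes by coding length, which were applied to the medians only, turned the long-class median on Day 4 from 0.10 to -0.30, and leaving out genes with under 50% unique 50-base sequences moved no count by over 1.5 times. Of the 58 members on Day 4, 6 lay within 0.1 of the 2-fold threshold on the log2 scale.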
